A study of Mus musculus with 51 samples.

Results

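Neutrophils are drawn into tissue by CXC chemokines and are kept supplied from the bone marrow by granulocyte colony-stimulating factor. This section follows 10 mouse genes of that axis, taken by gene symbol from tables of 40077 gene rows. The ligand side held the chemokine genes Cxcl1, Cxcl2 and Cxcl5 and the growth factor gene Csf3. The receptor and neutrophil side held the receptor genes Cxcr2 and Csf3r, the S100a8 and S100a9 genes, and Il1b and Mmp9. All 10 symbols matched a single row each. Csf3 lies at chr11:98701263-98703629, Cxcr2 at chr1:74153989-74161246, Csf3r at chr4:126024550-126044440, Il1b at chr2:129364570-129371139 and Mmp9 at chr2:164940780-164955850 (GENCODE M21, GRCm38), and S100a8 and S100a9 are neighbours at chr3:90668978-90670035 and chr3:90692632-90695721.

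CXCL1, CXCL2 and CXCL5 bind the chemokine receptor CXCR2, which sits on neutrophils and directs them along a gradient of ligand. The product of Csf3 acts through the receptor encoded by Csf3r and drives the formation and release of neutrophils. S100a8 and S100a9 encode the paired calcium-binding proteins that fill the neutrophil cytosol, Mmp9 encodes a protease stored in neutrophil granules, and Il1b encodes a cytokine that induces CXC chemokines through nuclear factor kappa B (NF-kB). Neutrophil RNA is scarce next to that of most other cells, so transcripts of neutrophils are low in whole-tumor RNA even where the cells are present.

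The study asked how UBA1, the main enzyme that activates ubiquitin, affects immune control of tumors, and measured RNA by sequencing in 51 libraries, 35 from tumors and 16 from cultured cells. Myc-CaP is a mouse prostate cancer line that was grown in syngeneic FVB mice, and B16-BL6 is a mouse melanoma line that was grown in C57BL/6 mice, both under the skin. The B16-BL6 tumors carried a control guide (sgNC, 3 tumors) or a guide against Uba1 (sgUba1, labelled Uba1-depletion, 4 tumors). The Myc-CaP tumors with edited or transduced cells were sgNC (3), sgUba1 (7), empty vector (EV, 3) and Uba1 overexpression (Uba1 OE, 4), and the tumors of unedited Myc-CaP cells received vehicle (6) or TAK-243 (5), a small-molecule inhibitor of UBA1. The Myc-CaP cells in culture formed 8 groups of 2 libraries. The first experiment had sgNC and sgUba1 cells, each with PBS or interferon-γ (IFN-γ). The second had unedited cells with no drug or with 50 nM TAK-243, each without or with IFN-γ. The sgUba1 lines were sublines grown from single cells with partial loss of Uba1, and overexpression came from a lentiviral vector with a viral promoter. Tumor cells had been injected into both flanks, so 2 tumors of a group may come from 1 mouse, and the p-values measure the spread between the libraries sampled. No age of the mice was in the labels.

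The promoters of Cxcl1 and Cxcl2 are shown because these ligands reached the highest RNA levels of the 3 that passed the test in drug-treated cells. Both genes lie head to tail on chromosome 5, Cxcl1 at chr5:90891241-90893115 and Cxcl2 at chr5:90903871-90905938 on the plus strand (GENCODE M21, GRCm38), with Cxcl5 upstream of them at chr5:90759360-90761624. The sequences run from 250 bases before to 50 bases after the RefSeq start of each gene, at chr5:90890995-90891294 for Cxcl1 and chr5:90903649-90903948 for Cxcl2 (GRCm38.p6, plus strand). Capitals mark the motif GGAATTTCC, part of an NF-kB binding sequence, which was searched on both strands.
Cxcl1: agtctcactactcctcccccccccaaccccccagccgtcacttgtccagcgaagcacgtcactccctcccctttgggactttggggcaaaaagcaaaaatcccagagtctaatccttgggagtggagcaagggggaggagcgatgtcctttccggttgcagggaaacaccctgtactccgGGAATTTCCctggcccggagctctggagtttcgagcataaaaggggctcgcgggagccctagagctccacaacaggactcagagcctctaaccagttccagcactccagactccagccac
Cxcl2: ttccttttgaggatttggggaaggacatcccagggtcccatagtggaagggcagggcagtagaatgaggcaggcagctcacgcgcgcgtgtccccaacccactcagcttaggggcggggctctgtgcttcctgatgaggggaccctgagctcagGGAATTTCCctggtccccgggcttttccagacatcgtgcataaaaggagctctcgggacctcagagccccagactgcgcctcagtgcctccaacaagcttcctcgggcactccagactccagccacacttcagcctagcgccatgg
The motif stood 70 to 62 bases upstream of the start in Cxcl1 and 96 to 88 bases upstream in Cxcl2, on the plus strand in both. Of 32851 promoters of the same length, 104 (0.317%) held it on either strand. Promoters were at hand for 7 of the 10 genes, and those of Cxcl5, Csf3 and Mmp9 were not searched. Among the 7 the motif was in those of Cxcl1 and Cxcl2 only, with no match in those of Cxcr2, Csf3r, S100a8, S100a9 and Il1b. The longest run of bases shared by the 2 windows was 20 bases long and did not contain the motif. A match of letters is a description and was not tested as a binding site.

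The libraries held 8652097 to 38032395 estimated counts. Levels are given as CPM, counts relative to the TMM-scaled library total, or as TPM, which also corrects for transcript length, where genes are compared with one another. A count of 0 in a library allows a level of up to 0.0789 to 0.347 CPM, for counting error only. Wherever groups are said below not to overlap, the share of all genes without overlap was not counted. Uba1 itself was 208 to 247 CPM in the B16-BL6 sgUba1 tumors against 410 to 455 CPM in sgNC, 283 to 295 CPM in sgUba1 cells against 526 to 533 CPM, and 631 to 747 CPM in Uba1 OE tumors against 278 to 310 CPM in EV. In Myc-CaP tumors, 3 of the 7 libraries labelled sgUba1 had 197 to 211 CPM and the other 4 had 361 to 383 CPM, above every sgNC tumor (320 to 337 CPM). Uba1 was 283 to 368 CPM in TAK-243 tumors and 311 to 379 CPM in vehicle tumors. In cultured cells it was higher with TAK-243, at 565 to 594 CPM against 445 to 452 CPM in control cells (edgeR adjusted p = 5.68e-12). The melanoma gene Pmel had 100773 to 146900 counts in the B16-BL6 tumors and at most 58 in the Myc-CaP tumors.

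TAK-243 raised the chemokine ligand RNA of cultured Myc-CaP cells, and did so unequally. Cxcl1 was 3.50 and 4.92 CPM in control cells and 41.9 and 43.7 CPM with TAK-243. The change was 10.2-fold, or 3.34 ± 0.12 on the log2 scale (SE, n = 2 against 2, edgeR adjusted p = 1.57e-20). Cxcl2 was 0.312 and 0.447 CPM in control cells, near the limit of detection, and 20.5 and 22.9 CPM with the drug. Its change was 56.3-fold (log2 5.82 ± 0.22 SE, edgeR adjusted p = 5.77e-20). Csf3 had 1 and 2 counts in the control libraries and 25 and 24 with TAK-243, a ratio of 17.8 with a 95% counting interval of 5.73 to 89.1. It passed the test (edgeR adjusted p = 4.55e-06), although a fitted fold for a gene with so few control counts depends on the prior count. Cxcl5, the third chemokine of the cluster on chromosome 5, was 26.1 and 26.2 CPM in control cells and 20.6 and 25.6 CPM with TAK-243 (log2 -0.19 ± 0.10 SE, edgeR adjusted p = 0.0873). It passed as lower without TAK-243 library 2 (log2 -0.40, adjusted p = 0.00277), or without TAK-243 library 1 (-0.24, adjusted p = 0.0337) or 2 (-0.25, adjusted p = 0.0296) with IFN-γ.

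Of the 5 members with enough counts to be tested in this experiment, 4 were higher with TAK-243 and 0 lower. Of these 4, Cxcl2 (5 to 7 counts in the control libraries) and Csf3 (1 to 2) reached the test through the TAK-243 libraries, here and with IFN-γ. From such low control levels only a rise could be called, so the 4 is not a share of members. Over all 14551 genes tested, 66.3% changed, 32.3% higher and 34% lower, so that a call alone says little here and the size of the change says more. Beside these ligands the receptor gene Cxcr2 was called (log2 0.56 ± 0.24 SE, edgeR adjusted p = 0.0452), at 2.06 to 4.70 CPM over the 16 cell libraries. That call was lost with DESeq2 (adjusted p = 0.164) and without control library 1 (0.363), TAK-243 library 1 (0.222) or 2 (0.0979), or TAK-243 library 1 (0.0657) or 2 (0.0733) with IFN-γ. The other 5 members had too few counts in these libraries. With IFN-γ present in both arms the same 4 genes were higher, where 68.2% of genes changed and 32% were higher. Cxcl1 was then 4.30 and 4.78 CPM without and 49.4 and 49.1 CPM with TAK-243, a 10.8-fold difference. Cxcl2 was 0.211 and 0.382 CPM without and 28.7 and 26.1 CPM with the drug, and Csf3 had 0 and 3 counts without and 31 and 53 with it (ratio 27.3, 95% counting interval 9.02 to 135). Cxcl5 again did not pass (log2 0.06 ± 0.10 SE, edgeR adjusted p = 0.584).

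Compared per length, the order of the ligands changed. In control cells Cxcl5 led with 27.8 and 28.1 TPM, followed by Cxcl1 with 9.77 and 6.98 TPM, Cxcl2 with 0.612 and 0.513 TPM and Csf3 with 0.0773 and 0.152 TPM. With TAK-243 Cxcl1 led with 82.6 and 85.0 TPM, Cxcl2 reached 34.5 and 29.2 TPM, Cxcl5 had 21.8 and 26.7 TPM and Csf3 had 1.85 and 2.28 TPM. The summed level of the 4 ligand genes was 35.8 and 38.3 TPM in control cells and 141 and 143 TPM with the drug, which is a description of levels with no test of its own.

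**Figure D1:**
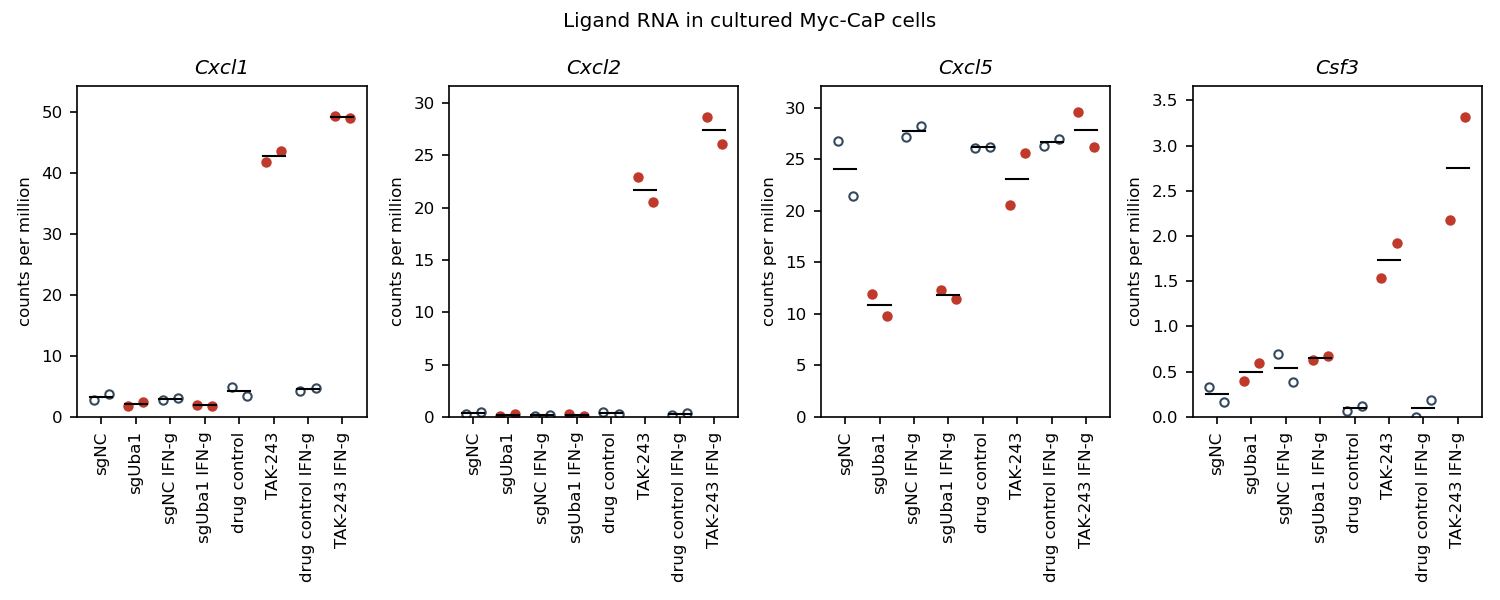
Levels of the 4 ligand genes in the 16 Myc-CaP cell libraries, in CPM on a linear axis from 0, by group (open circles are control groups, filled circles treated or depleted groups, and short lines are means). Cxcl1 and Cxcl2 stand apart in the TAK-243 libraries, at 41.9 to 49.4 CPM and 20.5 to 28.7 CPM, and Cxcl5 is lowest in the sgUba1 libraries.

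Other ligands that attract or mature neutrophils moved in the same cells. Of a list of 16 such genes, 7 could be tested with TAK-243, of which 6 were higher and 1 lower. Over all genes tested 66.3% changed and 32.3% were higher. The other 9 had too few counts, and Tnf and Cxcl3 reached the test through the treated libraries. Tnf, which encodes a cytokine that activates NF-kB, went from 0 counts in both control libraries to 31 in all with the drug, at least 11.2-fold higher against a floor of 3 counts over the control group (lower 95% counting limit 8.61). Cxcl3, a further CXCR2 ligand gene, had 1 count in the control libraries and 17 with TAK-243 (ratio 18.5, 95% counting interval 2.90 to 773). Il11 (log2 2.78) and Lif (log2 2.24), which encode cytokines of the interleukin-6 family, also rose, and the chemokine gene Cxcl15 fell by 2.05 on the log2 scale. Of 14 genes of interleukin-1 and NF-kB signaling and of ligand mRNA decay, 12 rose and 1 fell, with a median of 1.09. The same shares of all genes apply to this count. The largest changes were in Il1rn (2.90), which encodes the interleukin-1 receptor antagonist, Nfkb2 (2.45), Nfkbia (2.12), Myd88 (1.25) and Zc3h12a (1.25), the last an RNase that degrades cytokine mRNA. Nfkbia encodes the inhibitor of NF-kB and is itself an NF-kB target. Of 30 other neutrophil genes 3 had enough counts to be tested in these cells, and 1, Padi4, was higher.

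Loss of Uba1 by guide went with lower, not higher, chemokine RNA in the same cell line. Cxcl5 was 26.8 and 21.4 CPM in sgNC cells and 11.9 and 9.79 CPM in sgUba1 cells (log2 -1.15 ± 0.12 SE, n = 2 against 2, edgeR adjusted p = 4.68e-05). Cxcl1 was 2.80 and 3.76 CPM in sgNC and 1.78 and 2.40 CPM in sgUba1 (log2 -0.66 ± 0.21 SE, edgeR adjusted p = 0.0366). The same 2 of 5 members tested were lower with IFN-γ in both arms, where Cxcl5 was 27.2 and 28.3 CPM in sgNC and 12.3 and 11.4 CPM in sgUba1 cells (log2 -1.22, edgeR adjusted p = 1.13e-05) and Cxcl1 differed by a log2 of -0.65 (edgeR adjusted p = 0.0309). The background was 29.7% of 15530 genes changed and 13.6% lower without IFN-γ, and 39.4% changed and 22.4% lower with it. The Cxcl1 call depended on single libraries and on the tool, and the Cxcl5 call did not. Without IFN-γ Cxcl1 did not pass when sgNC library 2 (adjusted p = 0.241), sgUba1 library 1 (0.205) or either sgNC library with IFN-γ (0.055) was left out, and with IFN-γ when any 1 of the 4 libraries compared was left out (adjusted p = 0.0661 to 0.181). DESeq2 gave it an adjusted p of 0.0746 and, with IFN-γ, 0.0715. Csf3 was not called (log2 1.01 ± 0.51 SE, edgeR adjusted p = 0.169), and Cxcl2 was too low to be tested, with 2 to 15 counts a library. The sgUba1 cells were grown from single cells, so what belongs to a subline and what to the loss of Uba1 cannot be told apart.

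Of the ligand list, Cxcl15 was again lower in sgUba1 cells (log2 -1.55) and Csf1, the macrophage growth factor gene, was higher (0.34). Of the 14 regulators 6 were higher and 2 lower, where 29.7% of all genes tested changed. Il1rap (1.09) and Il1r1 (0.90), which encode both chains of the interleukin-1 receptor, rose most, and Cebpb, which encodes a transcription factor of inflammatory genes, fell by 0.63. Nfkbia rose by 0.35 and Zc3h12a fell by 0.42. These values are for cells without IFN-γ, where the median of the 14 regulators was 0.20. With IFN-γ in both arms 3 of the 14 were higher and 6 lower, with a median of -0.13, where 39.4% of all genes tested changed.

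No member passed the test for IFN-γ alone. In sgNC cells 0 of 5 members passed edgeR, with 1 at an unadjusted p under 0.05 and 0 by DESeq2 or limma-voom, against 3.88% of all genes. Without sgNC library 1 Cxcl5 passed there (log2 0.38, edgeR adjusted p = 0.0183). In control cells of the drug experiment 0 of 5 passed, with 0 unadjusted and 0 by either other tool, against 29% of all genes. No member passed for a difference of the IFN-γ response with sgUba1 (0 of 5, 4.64% of all genes) or with TAK-243 (0 of 5, 2.38% of all genes), with 0 members at an unadjusted p under 0.05 in either and 0 by DESeq2 or limma-voom.

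Whether drug and guide differed was tested by the difference of the effects over all 16 cell libraries, a comparison added after the data were seen. Cxcl1 differed by 3.99 on the log2 scale (edgeR adjusted p = 2.56e-11) and Cxcl5 by 0.93 (adjusted p = 7.94e-05), toward higher RNA with TAK-243 than with sgUba1. Cxcl2 entered this fit through its TAK-243 libraries, and its difference of 7.07 (adjusted p = 5.66e-08) takes the guide effect from 3 to 15 counts a library. Csf3 differed by 3.08 (adjusted p = 0.0117), and that call was lost without control library 1 of the drug experiment (2.69, adjusted p = 0.0601) or sgNC library 1 (2.52, adjusted p = 0.0869). These were 4 of 6 members tested, where 55.3% of all genes differed. With IFN-γ the same 4 genes differed, Cxcl1 by 4.07, Cxcl2 by 6.58, Csf3 by 4.41 and Cxcl5 by 1.27, against 56.7% of all genes. Cxcl2 there had 2 to 9 counts in the libraries of the guide experiment, and the value of Csf3 ran from 3.50 without control library 1 with IFN-γ to 8.78 without control library 2 with IFN-γ. The experiments were separate, had other controls and, as stated in the study, other ways of lowering UBA1 activity, which this difference does not separate.

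The neutrophil side of the axis was close to absent from the cultured cells. S100a9 had 0 counts in all 16 cell libraries, S100a8 and Il1b had 0 to 2 and Mmp9 had 0 to 4. Csf3r was 0.0626 to 0.922 CPM in cells and 1.69 to 7.42 CPM in tumors, with no overlap over the 51 libraries. Cxcr2 was the exception, at 2.06 to 4.70 CPM in cells and 4.30 to 10.2 CPM in tumors. Thus S100a8 and S100a9 RNA in tumors could be read with a background of at most 2 counts in the cultured line, and Cxcr2 RNA could not.

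In tumors, TAK-243 went with more S100a8 and S100a9 RNA. S100a8 was 0.182, 0.162, 0.170, 0.278, 1.09 and 0.377 CPM in the 6 vehicle tumors and 3.97, 3.95, 4.36, 2.40 and 7.72 CPM in the 5 TAK-243 tumors. S100a9 was 0.242, 0.162, 0.283, 0.208, 1.45 and 0.480 CPM with vehicle and 7.69, 6.33, 6.05, 3.48 and 13.4 CPM with TAK-243. For both genes the lowest treated tumor lay above the highest vehicle tumor, and the tumors numbered 5 were the highest of their group. The change was 12.4-fold for S100a8 (log2 3.63 ± 0.46 SE, n = 5 against 6, edgeR adjusted p = 0.0107) and 16.3-fold for S100a9 (log2 4.03 ± 0.51 SE, edgeR adjusted p = 0.0107). In bulk tumor RNA, more cells of a type and more RNA per cell cannot be told apart. These 2 of the 10 members passed, where 0.145% of 17299 genes changed and 0.0867% were higher, 15 genes in all. In the vehicle tumors S100a8 had 5 to 27 counts and S100a9 had 5 to 36. Both genes reached the test through the TAK-243 tumors, so the count of 2 is not a share of members.

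Single libraries decided the calls of this comparison more than its direction. Without vehicle tumor 1 no member passed, with log2 changes of 3.49 and 3.89 and an adjusted p of 0.0642 for both S100a8 and S100a9, while leaving out any other tumor gave an adjusted p between 7.39e-04 and 0.0497. Without both libraries numbered 5 the changes were 3.98 and 4.41 (adjusted p = 3.45e-04). DESeq2 called 5 members, adding Cxcl1 (adjusted p = 0.00749), Cxcl2 (adjusted p = 0.018) and Csf3r (adjusted p = 0.0135), and limma-voom called 2.

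**Figure D2:**
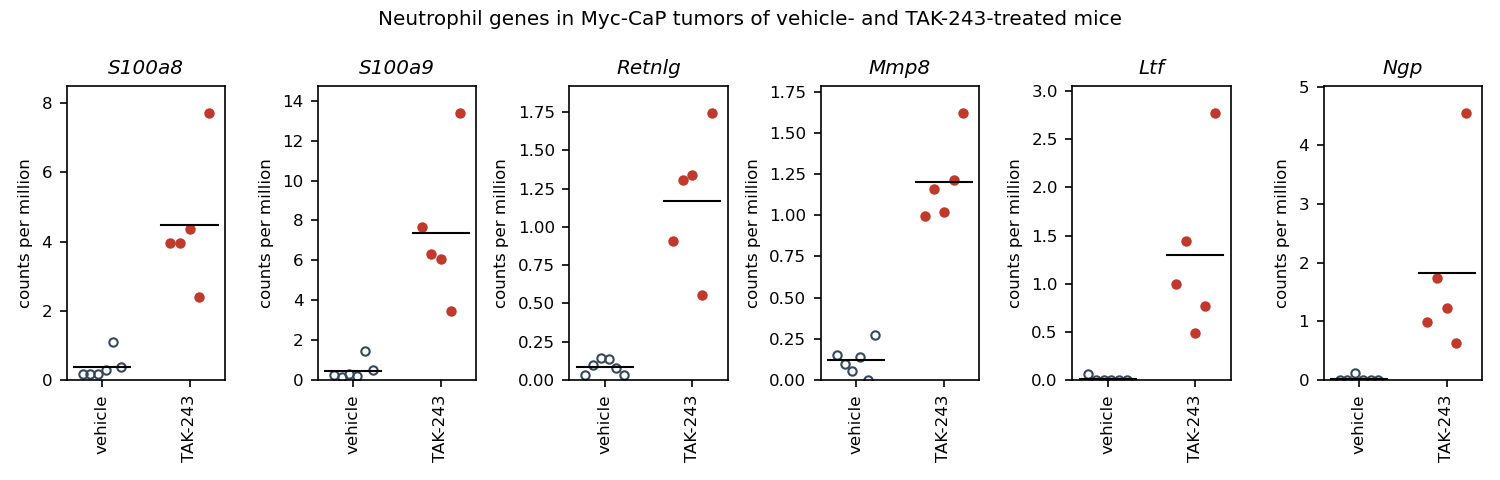
S100a8, S100a9, Retnlg, Mmp8, Ltf and Ngp in the vehicle (open) and TAK-243 (filled) Myc-CaP tumors, in CPM on a linear axis from 0, each point a tumor and each short line a group mean. S100a8 and S100a9 do not overlap between the groups, with vehicle tumors at 0.162 to 1.45 CPM and TAK-243 tumors at 2.40 to 13.4 CPM.

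Genes of neutrophil granules and of mature neutrophils moved the same way. Of a list of 30 other neutrophil genes 16 could be tested, of which 5 were higher and 0 lower. The other 14 had too few counts, and a gene that is low with vehicle reached the test only through the TAK-243 tumors, so the count is not a share of neutrophil genes. Ltf, which encodes lactoferrin of the secondary granules, had 2, 0, 0, 0, 0 and 0 counts with vehicle and 35, 40, 14, 22 and 89 with TAK-243 (ratio 119, 95% counting interval 32.4 to 985, edgeR adjusted p = 0.0104). Ngp, a neutrophil granule protein gene, had 4 counts in 1 vehicle tumor and 0 in the other 5, and 18 to 146 with TAK-243 (edgeR adjusted p = 0.0133). Retnlg, a gene of mature neutrophils, had 1 to 5 counts with vehicle and 16 to 56 with TAK-243 (log2 3.68, edgeR adjusted p = 0.00916). Mmp8, the neutrophil collagenase gene, had 0 to 8 counts with vehicle and 29 to 52 with TAK-243 (log2 3.27, edgeR adjusted p = 0.0107), and the decoy interleukin-1 receptor gene Il1r2 had 7 to 17 and 25 to 46 (log2 1.52, edgeR adjusted p = 0.0488). None of these 5 genes overlapped between the groups. They were picked because they passed the test, and the share of all genes without overlap was not counted. Together with S100a8 and S100a9 they made up 7 of the 15 genes called higher in this comparison. Itgam, which encodes an integrin chain of myeloid cells, was among the other 8, and is named here after its value was seen.

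Other neutrophil genes stayed near the limit of detection. Ly6g, which encodes a surface marker of mouse neutrophils, had 0 counts in all vehicle tumors and 1, 0, 0, 0 and 2 in the TAK-243 tumors. Camp, which encodes the secondary granule peptide cathelicidin, had 0 to 1 counts with vehicle and 1 to 16 with TAK-243. The primary granule genes differed from these, with 16 to 23 counts of Mpo with vehicle and 16 to 28 with TAK-243, and 0 to 2 counts of Elane. Without vehicle tumor 1 the test called 1 of the list genes in place of 5, and without vehicle tumor 3, 4 or 5 it called 3.

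The ligands themselves were less clear in the same tumors. Cxcl1 was 0.940 to 1.87 CPM (median 1.56) in the vehicle tumors and 2.10, 1.92, 3.797, 3.72 and 3.95 CPM with TAK-243. The groups did not overlap, and the 2.03-fold difference did not pass (log2 1.02 ± 0.24 SE, edgeR adjusted p = 0.115). Cxcl2 was 0.937, 0.543, 2.36, 3.69 and 4.14 CPM with TAK-243 and overlapped the vehicle tumors (log2 1.61 ± 0.44 SE, edgeR adjusted p = 0.146). Neither Csf3 (log2 0.37, adjusted p = 0.780) nor Cxcl5 (log2 0.29, adjusted p = 0.672) passed. In cultured cells the same drug gave changes of 3.34 for Cxcl1 and 5.82 for Cxcl2, but dose, time and cell mixture differed, so the values stand side by side only. The summed ligand level was 15.8 to 23.3 TPM in vehicle tumors and 16.2 to 46.2 TPM in TAK-243 tumors, and that of the 6 receptor and neutrophil genes was 6.90 to 20.6 TPM and 44.8 to 116 TPM. With TAK-243, S100a8 and S100a9 made up most of the second sum. Their means were 2.17 and 2.47 TPM with vehicle and 27.0 and 40.4 TPM with TAK-243, while the Il1b mean was 0.723 and 0.356 TPM. Of the ligand list 0 of 10 and of the regulator list 0 of 14 genes tested passed edgeR, with 3 and 1 at an unadjusted p under 0.05.

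**Figure D3:**
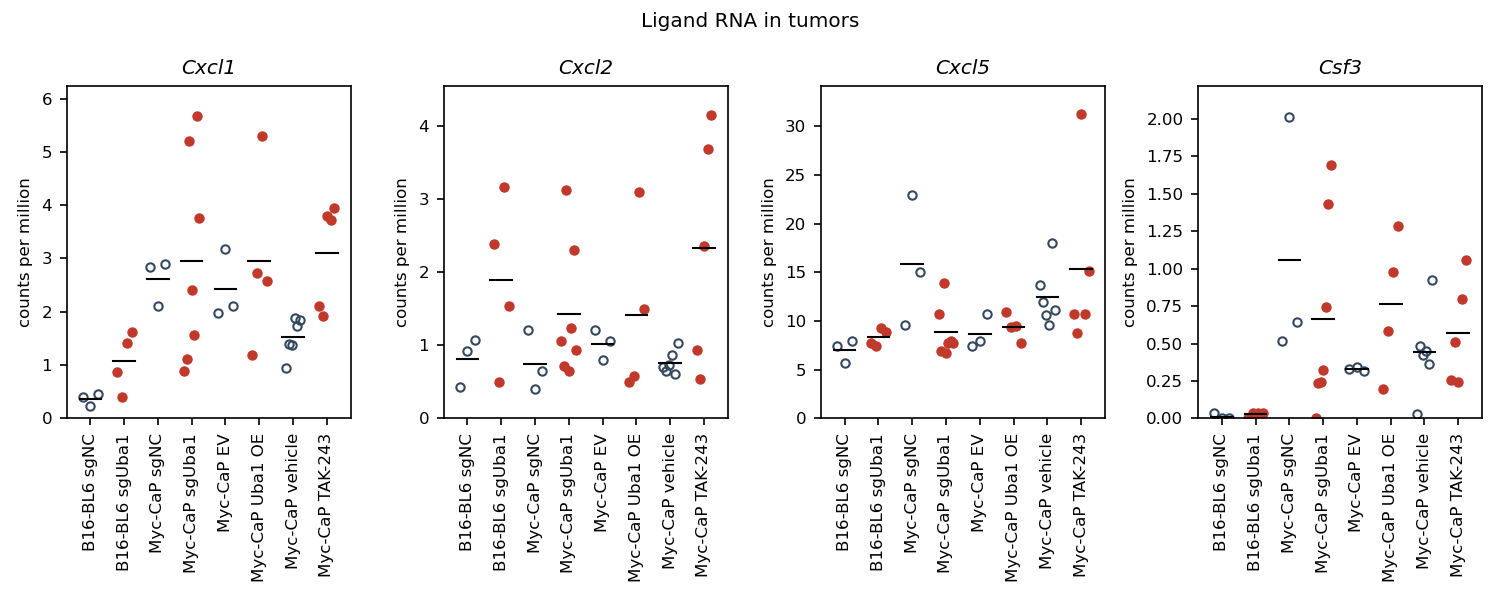
Levels of the 4 ligand genes in the 35 tumors, in CPM on a linear axis from 0, by group (open circles are control groups, filled circles depleted, overexpressing or treated groups, and short lines are means). Cxcl1 in the TAK-243 tumors (1.92 to 3.95 CPM) lies above the vehicle tumors (0.940 to 1.87 CPM), and the other 3 compared pairs of groups overlap in Cxcl1.

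Among the remaining members, Csf3r had a log2 change of 0.68 ± 0.17 (SE, edgeR adjusted p = 0.12) with TAK-243, and Cxcr2 of 0.20 (edgeR adjusted p = 0.424). Mmp9 had a log2 change of 0.86 (edgeR adjusted p = 0.451), set mostly by TAK-243 tumor 1 with 8.06 CPM. Il1b was 0.274 to 0.846 CPM in vehicle tumors and 0.0568, 0.398, 0.211, 0.348 and 0.280 CPM with TAK-243, which overlapped (log2 -1.12 ± 0.43 SE, edgeR adjusted p = 0.265). Without TAK-243 tumor 5 edgeR called Csf3r (log2 0.76, adjusted p = 0.0493), as DESeq2 did with all tumors.

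Markers of other cells are given beside these results. Summed hemoglobin RNA of 4 genes was 99.9 to 306 CPM in 5 vehicle tumors and 1466 CPM in vehicle tumor 5, and 51.7 to 202 CPM in 4 TAK-243 tumors and 868 CPM in TAK-243 tumor 5, the same tumors that were highest in S100a8 and S100a9. Without them both genes changed more, as given above. TAK-243 tumor 1 held keratinocyte RNA, with 588 counts of Krt5 and 1164 of Krt14 against 0 to 1 and 0 to 6 in the other 10 tumors of this experiment. The summed keratinocyte list was 192 TPM in it, 19.2 to 33.9 TPM in the other TAK-243 tumors and 9.75 to 32.5 TPM in vehicle tumors. This sum is not particular to keratinocytes. In cultured Myc-CaP cells it was 34.4 and 32.7 TPM without drug and 129 and 128 TPM with TAK-243. In sgUba1 cells it was 185 and 175 TPM. Without TAK-243 tumor 1 S100a8 and S100a9 still passed (edgeR adjusted p = 0.0285). The leukocyte gene Ptprc was 7.27 to 11.6 CPM with vehicle and 7.72 to 18.2 CPM with TAK-243, and the macrophage gene Adgre1 was 6.15 to 10.7 and 4.98 to 18.1 CPM. Of the macrophage list 0 of 11 genes tested and of the pan-leukocyte list 0 of 6 passed edgeR, with 6 and 1 at an unadjusted p under 0.05. All 11 and all 6 had a positive change, with medians of 0.60 and 0.17 on the log2 scale against 0.01 over all genes tested. All 30 neutrophil list genes summed to 71.5 to 255 TPM with vehicle and to 192 to 617 TPM with TAK-243, which overlapped. The 29 genes other than Lcn2, which epithelial cells also make, summed to 7.49 to 15.0 TPM with vehicle. With TAK-243 these 29 summed to 31.97 to 48.1 TPM, without overlap. The 5 list genes that passed the test are part of both sums.

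In tumors with a guide against Uba1 no member passed. In Myc-CaP tumors 0 of 9 members tested passed edgeR, where 3.04% of 16202 genes changed, with 2 at an unadjusted p under 0.05, 1 by DESeq2 and 0 by limma-voom. S100a9 was 0.0859, 0.806 and 2.01 CPM in sgNC and 0.162 to 1.24 CPM (median 0.560) in the tumors labelled sgUba1 (log2 -0.59 ± 0.71 SE, edgeR adjusted p = 0.649). Il1b was 2.83, 2.52 and 2.73 CPM in sgNC and 1.91 to 9.20 CPM (median 6.01) in the 7 tumors labelled sgUba1, which overlapped (log2 0.999 ± 0.42 SE, edgeR adjusted p = 0.186). Cxcl5 had a log2 change of -0.84 ± 0.28 (SE, edgeR adjusted p = 0.114), and this is the member that DESeq2 called (adjusted p = 0.0487). Because 4 of the 7 tumors labelled sgUba1 had Uba1 above every control, the comparison was repeated without them, again with 0 members called and with log2 changes of 0.99 for Il1b and -0.59 for Cxcl5. In the same comparison 4 of 12 macrophage genes and 2 of 6 pan-leukocyte genes were higher, against 1.15% of all genes, among them Adgre1 (log2 1.15, edgeR adjusted p = 0.0276) and Ptprc (log2 1.06, edgeR adjusted p = 0.0459). The neutrophil list had 0 of 10 genes called by edgeR, with 2 at an unadjusted p under 0.05.

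The difference between the effects of TAK-243 and sgUba1 in Myc-CaP tumors, fitted over 21 tumors and also added after the data were seen, passed for S100a8 (log2 4.56, edgeR adjusted p = 0.0177) and S100a9 (log2 4.60, edgeR adjusted p = 0.0331), where 0.691% of all genes differed. S100a8 had been too low to be tested for sgUba1 alone, with 2 to 15 counts in sgNC and 2 to 11 in the tumors labelled sgUba1, and entered this fit through the TAK-243 tumors (69 to 248 counts). No other member passed, Il1b being next with -2.12 (edgeR adjusted p = 0.0816). These calls rested on single tumors. Limma-voom called 1 of the genes, and leaving out single tumors left 0 to 3 members called, with 0 without sgNC tumor 2. The calls were lost in part without sgNC tumor 3, sgUba1 tumor 4 or 7, vehicle tumor 1, 3 or 4, or TAK-243 tumor 3 or 5, each of which left 1. The fit held all 7 tumors labelled sgUba1, of which 4 had Uba1 RNA above every sgNC tumor. It is thus a contrast with the label and not with low Uba1. The drug and guide experiments also had separate controls, which this difference does not separate.

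**Figure D4:**
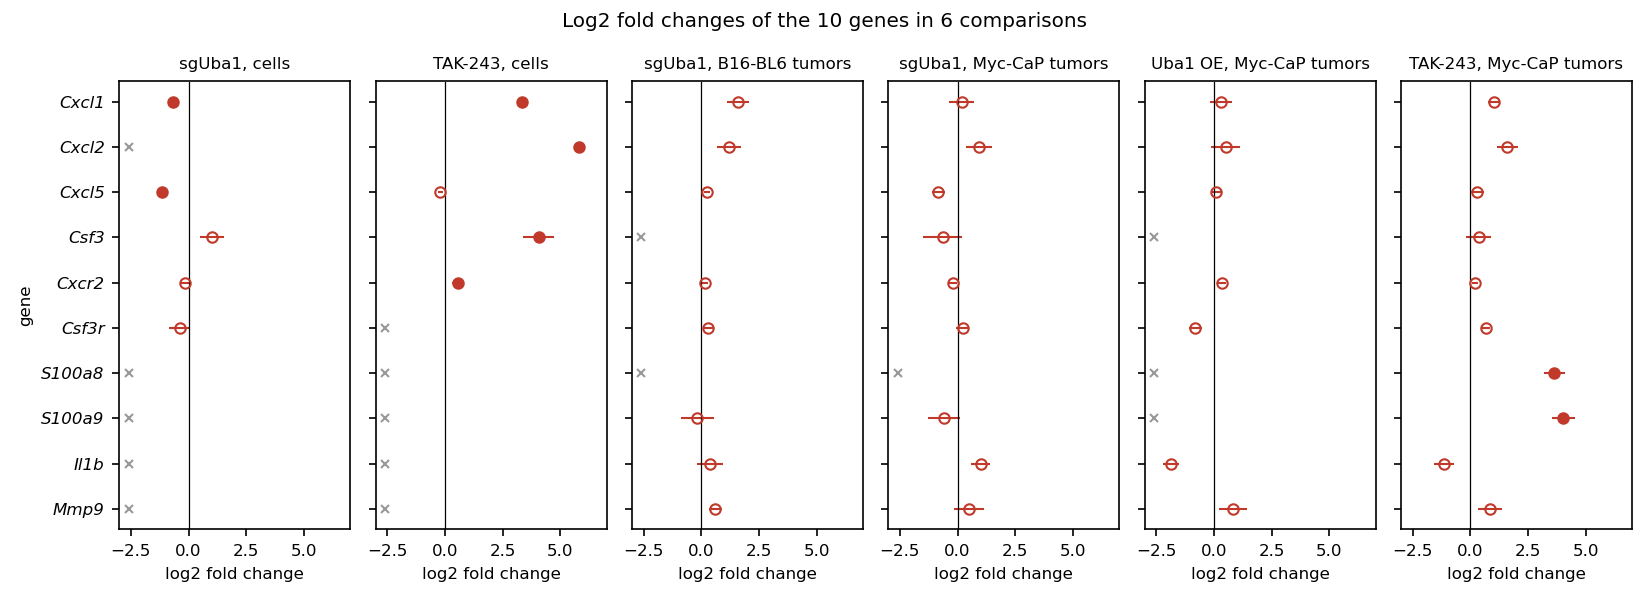
Log2 fold changes of the 10 members in 6 comparisons of cells and tumors, with standard errors as bars (filled points passed an edgeR adjusted p of 0.05, open points did not, and a cross at the left edge marks a gene with too few counts to be tested). The TAK-243 panels show the ligands Cxcl1 and Cxcl2 at 3.34 and 5.82 in cells, and S100a8 and S100a9 at 3.63 and 4.03 in tumors.

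In B16-BL6 tumors 0 of 8 members tested passed edgeR, with 2 at an unadjusted p under 0.05 and 0 by DESeq2 or limma-voom, where 0.724% of 17539 genes changed. Cxcl1 was 0.397, 0.231 and 0.452 CPM in sgNC and 0.874, 0.403, 1.41 and 1.63 CPM in sgUba1, which overlapped (log2 1.59 ± 0.48 SE, edgeR adjusted p = 0.176). Cxcl2 was 0.430, 0.925 and 1.08 CPM in sgNC and 2.38, 0.504, 3.16 and 1.53 CPM in sgUba1 (log2 1.21 ± 0.53 SE, edgeR adjusted p = 0.3). S100a9 had a log2 change of -0.18 ± 0.71 (SE, edgeR adjusted p = 0.925), and 0 of 10 genes of the neutrophil list passed edgeR, with 2 at an unadjusted p under 0.05.

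With Uba1 overexpression 0 of 7 members tested passed edgeR, with 2 at an unadjusted p under 0.05 and 0 by DESeq2 or limma-voom, where 0.0269% of 14853 genes changed. Il1b was 1.97, 3.06 and 1.80 CPM in EV and 0.595, 0.682, 0.408 and 0.857 CPM in Uba1 OE, without overlap (log2 -1.84 ± 0.35 SE, edgeR adjusted p = 0.123, and 0.0469 without Uba1 OE tumor 1). Csf3r was 2.19, 4.42 and 3.07 CPM in EV and 1.69, 2.14, 1.79 and 1.71 CPM in Uba1 OE, also without overlap (log2 -0.81 ± 0.28 SE, edgeR adjusted p = 0.199). Cxcr2 went the other way without overlap, at 4.30 to 5.25 CPM in EV and 5.85 to 6.92 CPM in Uba1 OE (log2 0.34, edgeR adjusted p = 0.314). The share of all genes without overlap was not counted. Leukocyte markers pointed the same way as Il1b and Csf3r. Of the macrophage genes tested 2 of 11 and of the pan-leukocyte genes 0 of 6 were positive, with medians of -0.48 and -0.47. Of either list 0 passed edgeR (4 and 1 at an unadjusted p under 0.05). The summed macrophage list was 290 to 347 TPM in EV and 107 to 314 TPM in Uba1 OE, the pan-leukocyte list 486 to 534 and 58.1 to 509 TPM, and the T and NK cell list 14.6 to 19.1 and 4.79 to 8.27 TPM. Their part in the lower values was not tested. S100a8 and S100a9 had too few counts for the test. Over the libraries S100a8 had 2 counts in EV and 20 in Uba1 OE (ratio 6.60, 95% counting interval 1.60 to 58.3), S100a9 had 3 and 22 (ratio 4.84, interval 1.45 to 25.3) and Csf3 had 9 and 32 (ratio 2.35, interval 1.10 to 5.59). These intervals cover counting error within the libraries and not the spread between tumors.

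**Figure D5:**
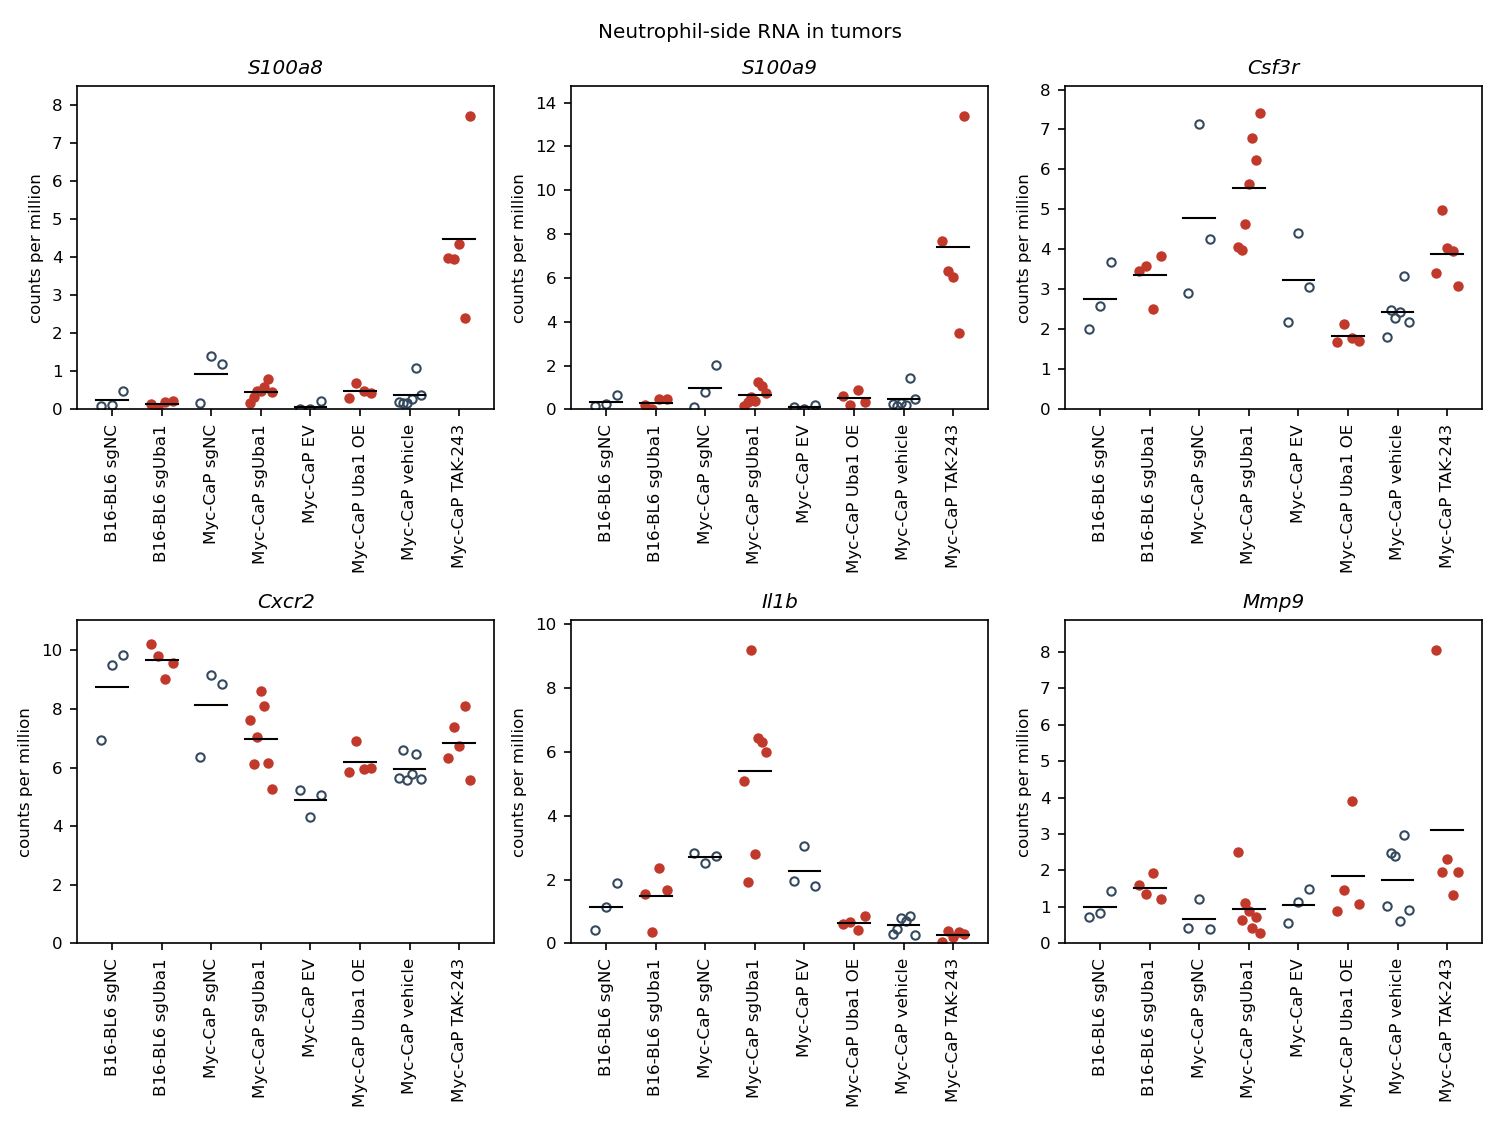
Levels of the 6 receptor and neutrophil genes in the 35 tumors, in CPM on a linear axis from 0, by group (open circles are control groups, filled circles depleted, overexpressing or treated groups, and short lines are means). S100a8 and S100a9 are highest in the TAK-243 tumors, and Cxcr2 lies between 4.30 and 10.2 CPM in every tumor.

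Ordered by mean level over the 8 tumor groups, S100a9 ran from 7.39 ± 3.68 CPM (SD, n = 5) with TAK-243 to 0.967 ± 0.972 (n = 3) in Myc-CaP sgNC, 0.644 ± 0.400 (n = 7) in sgUba1, 0.502 ± 0.312 (n = 4) in Uba1 OE, 0.471 ± 0.492 (n = 6) with vehicle, 0.341 ± 0.281 (n = 3) in B16-BL6 sgNC, 0.297 ± 0.215 (n = 4) in B16-BL6 sgUba1 and 0.107 ± 0.106 (n = 3) in EV. Below TAK-243 the neighbours in this order lay within 1 SD of each other. Cxcl1 was 3.10 ± 0.999 CPM with TAK-243, 2.95 ± 1.71 in Uba1 OE, 2.94 ± 1.95 in Myc-CaP sgUba1, 2.61 ± 0.434 in sgNC, 2.42 ± 0.656 in EV and 1.53 ± 0.361 with vehicle. Neighbours among its first 5 groups lay within 1 SD of each other, and the vehicle tumors had the lowest mean of the Myc-CaP groups. B16-BL6 tumors were below, at 1.08 ± 0.551 CPM in sgUba1 and 0.360 ± 0.115 CPM in sgNC. Csf3r had another order, with the highest means in Myc-CaP sgUba1 (5.53 ± 1.36 CPM) and sgNC (4.78 ± 2.16 CPM) and the lowest in Uba1 OE (1.83 ± 0.212 CPM). Tumors of separate experiments had no common control beyond the cell line, so this order is a description.

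The level of ligand RNA was set against that of Csf3r, a receptor gene of neutrophils and other myeloid cells, within each tumor experiment, giving 16 relations. None passed after adjustment. The largest in the drug experiment was that of Cxcl1 (n = 11 tumors, Pearson r = 0.635, permutation p = 0.0387, adjusted p = 0.309; Spearman rho = 0.691, permutation p = 0.0231, adjusted p = 0.185). Without the 2 tumors farthest from the Cxcl1 median r was 0.671, but on deviations from the group means it was 0.0205, so that it rested on the difference between treated and vehicle tumors. In the Myc-CaP guide experiment Csf3 and Csf3r had r = 0.699 (n = 10 tumors, permutation p = 0.026, adjusted p = 0.309; rho = 0.782, permutation p = 0.0107). Without the 2 tumors farthest from the Csf3 median this r was 0.619 (permutation, adjusted p = 0.516). On deviations from the group means it was 0.863, the only 1 of the 16 with an adjusted p under 0.05 (permutation, adjusted p = 0.0346). Csf3 had only 6 to 20 counts in the sgNC tumors and 0 to 20 in those labelled sgUba1.

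Over the 35 tumors, the genes whose deviations from group means were most like those of Cxcl1 among 16639 genes were Slfn4 (r = 0.71), Trafd1 (0.681), Zmym6 (0.670), Cxcl2 (0.669) and Egr3 (0.658). For Csf3r they were St8sia6 (0.762), 9930012K11Rik (0.714), Epsti1 (0.709), Fbxl17 (0.693) and Ms4a6c (0.689). Cxcl2, the neighbour of Cxcl1 on the chromosome, was thus among these 5. These correlations share libraries and depth and are given as a description.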

How the data were processed

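RNA was sequenced from 35 tumors and 16 Myc-CaP cell cultures, after poly-A selection per the labels, whereas the study's methods name a kit that removes ribosomal RNA. The authors estimated expression with kallisto (mm10, both from the submitters' processing notes), and the deposited tables give estimated counts and TPM per gene. Estimated counts were rounded, genes were kept by filterByExpr, libraries were scaled by TMM, and groups were compared by quasi-likelihood in edgeR, 1 fit per experiment, with p-values adjusted over all genes tested (Benjamini-Hochberg, threshold 0.05). CPM are TMM-scaled. Totals ranged from 8652097 to 38032395 counts, and intervals and floors (3 counts, 95% level) cover counting error only. Replicates were compared over 75 pairs, none identical. Tools were R 4.3.3, edgeR 4.0.16, limma 3.58.1, DESeq2 1.42.0 and Python 3.11.15 with scipy 1.17.1, and the fits were tested on simulated data.

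The members and gene lists were chosen with earlier results of these data known. Named were all members, Uba1, up to 5 called genes of the ligand, neutrophil and regulator lists by size of change, markers beside results they touch, and the 5 genes most like Cxcl1 and Csf3r. Alternatives were DESeq2, limma-voom, other scaling and filters, log2 TPM with a pseudocount of 1 or 0.1 tested by limma, a replicate block, and leaving out libraries. The differences between drug and guide effects and the fits without doubtful libraries were added after seeing the data. Promoters came from RefSeq (GRCm38.p6), and 9732 genes were at 0 in every library.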

Additional observations from a re-analysis of the deposited data

Results flagged for a closer look

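Within groups of 4 to 7 tumors, 6 of 49 pairs of a member and a group had a single tumor that stood apart from the rest by Dixon's test at the 95% level. The chance rate of 1 in 20 at this level assumes normal values, which CPM of genes with few counts need not have. The 6 are therefore not set against that rate. All 6 were the highest of their group, and S100a8 and S100a9 flagged the same tumor. The values are given without explanation. In the vehicle tumors, replicate 5 had 1.09 CPM of S100a8 (next highest 0.377 CPM) and 1.45 CPM of S100a9 (next 0.480 CPM). It was also the vehicle tumor with the most hemoglobin RNA, and the part of that in these values was not tested. In the TAK-243 tumors, replicate 3 had 31.2 CPM of Cxcl5 (next 15.1 CPM) and replicate 1, the tumor with keratinocyte RNA, had 8.06 CPM of Mmp9 (next 2.32 CPM). In the Myc-CaP tumors labelled sgUba1, replicate 1 had 2.51 CPM of Mmp9 (next 1.12 CPM). In the Uba1 OE tumors, replicate 2 had 6.92 CPM of Cxcr2 (next 5.997 CPM).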

How the results depend on the processing

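Of 2072 values of single genes under alternatives, 1924 kept their direction and their side of the threshold, 64 changed sign without passing in either fit, 55 lost and 27 gained significance, and 2 called values changed sign. These 2 were Uba1 for the IFN-γ response changed by TAK-243, at -0.17 in edgeR and 0.0153 on log2(TPM + 1) and log2(TPM + 0.1). DESeq2 called 1 member in Myc-CaP sgUba1 tumors, 5 in TAK-243 tumors, and 1 in sgUba1 cells with and without IFN-γ. A fit of all 17 Myc-CaP tumors of the genetic groups called 1 member for sgUba1. A minimum of 10 counts in every library, which removes S100a8 and S100a9, left 0 members and 0 neutrophil list genes in TAK-243 tumors, 2 members in TAK-243 cells with and without IFN-γ, and, for the difference between drug and guide, 2 in cells with IFN-γ and 0 in tumors. Limma on log2(TPM + 1) called 3 neutrophil list genes in TAK-243 tumors and 1 member in sgUba1 cells with and without IFN-γ. On log2(TPM + 0.1) it called 1 member in sgUba1 cells with and without IFN-γ and 1 for the difference in tumors, where limma-voom also called 1. The fit of only the 2 groups called 1 in sgUba1 cells. Leaving out 1 library gave 0 to 1 members for Uba1 OE, 0 to 3 for TAK-243 tumors (1 to 6 neutrophil list genes), 1 to 2 for sgUba1 cells with and without IFN-γ, 0 to 1 for IFN-γ in sgNC cells, and 0 to 3 for the difference in tumors. With 2 libraries a group, the lone library is assumed to vary like the other groups. Relations of ligand to Csf3r numbered 1 on deviations from group means.

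With a replicate block, 2 neutrophil list genes passed in TAK-243 tumors in place of 5, and 2 members still passed there. The block moved no count of members by more than 1.5 times. Samples share only a number: same-numbered tumors of the drug experiment had a median correlation of -0.007 (lowest -0.288). In cells 8 of 8 samples of each experiment correlated best with their own number, a hint from the data only. With 2 libraries a group their deviations from the group mean mirror each other. Both libraries of a group then give the same answer, and the 8 are not independent. Depth limits S100a8, S100a9, Il1b and Mmp9 in cells, where S100a9 was at 0 in all 16 libraries and the others had at most 4 counts, and Csf3 and Cxcl2 in untreated cells.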
